A study of Mus musculus with 6 samples.

Results

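The genes described here are the receptor chains, kinases, transcription factor and feedback inhibitors through which a cell receives interferon. They are Ifnar1, Ifnar2, Ifngr1, Ifngr2, Jak1, Jak2, Stat2, Socs1 and Socs3, taken by gene name from the count table. They make up 9 of the 49315 genes listed, and all 9 were among the 18234 genes with enough counts to be tested. The cells were bEND.3, endothelial cells of mouse brain kept as a single immortalized line, with no transgene given in the labels. They were lipofected with a locked nucleic acid GapmeR, a short antisense strand whose DNA centre lets RNase H cut the paired RNA. In 4 samples the GapmeR was directed against the lncRNA Gm39822 at 100 nM, and in 2 samples it was a negative control GapmeR at the same 100 nM. All 6 samples therefore carried an oligonucleotide and a transfection reagent, and no cytokine is given in their labels. The samples come from 1 cell line, and nothing in the labels says that they came from separate cultures, so p-values measure only the spread between these samples, which may be technical.

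Type I interferons bind the chains IFNAR1 and IFNAR2, and interferon gamma binds IFNGR1 and IFNGR2. The kinases bound to the inner ends of these chains, JAK1 with TYK2 for type I and JAK1 with JAK2 for interferon gamma, phosphorylate the STAT proteins. STAT2 acts with IRF9 in a complex that binds the interferon-stimulated response element, whereas STAT dimers bind the gamma-activated site. SOCS1 and SOCS3 are themselves induced by STAT signalling and switch it off, SOCS1 mainly at JAK1, JAK2 and TYK2 and SOCS3 mainly at receptors that share the gp130 chain. In endothelium this pathway is known for controlling antigen presentation, chemokine release and adhesion of leukocytes.

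On mouse build mm10 (GRCm38.p6, RefSeq), 3 of the 4 receptor chain genes are neighbours. Ifnar2 (ENSMUSG00000022971, chr16:91372783-91405589), Ifnar1 (ENSMUSG00000022967, chr16:91485032-91510523) and Ifngr2 (ENSMUSG00000022965, chr16:91547059-91564007) all lie on the plus strand within 191.2 kb, with Il10rb between Ifnar2 and Ifnar1. Ifngr1 (ENSMUSG00000020009) lies apart at chr10:19591949-19610229 on the plus strand. Jak1 (ENSMUSG00000028530) spans chr4:101151974-101265282 on the minus strand and Jak2 (ENSMUSG00000024789) chr19:29251803-29313095 on the plus strand. Stat2 (ENSMUSG00000040033) lies at chr10:128270498-128292853 on the plus strand. Socs1 (ENSMUSG00000038037) at chr16:10783808-10785536 and Socs3 (ENSMUSG00000053113) at chr11:117966079-117970336 are both on the minus strand.

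The 250 bases upstream of 1 RefSeq transcript start of each gene, the one in the promoter table, were searched on both strands for both elements, because they are the sequences that the STAT complexes are known to bind. The gamma-activated site (GAS) was searched as TTCNNNGAA and the interferon-stimulated response element (ISRE) as GAAANNGAAA, with TTTCNNTTTC as its other strand. For 6 genes that start is the 5′ end of the gene span given above, whereas for Jak1, Ifnar1 and Socs3 it lies 59, 183 and 970 bases inside the span, so their windows overlap the span of the gene. Each gene had a window, and 4 of the 9 windows held a match, 2 with GAS and 2 with ISRE. Among all 32851 windows of this length in the RefSeq table, 7.02% held a GAS match, 2.98% an ISRE match and 9.66% at least 1 of these. The 4 stretches are shown 5′ to 3′ on the strand of the gene, with the match in capitals, so that the letters can be set beside the counts of each gene.
Stat2, ISRE, chr10:128270266-128270295, plus strand: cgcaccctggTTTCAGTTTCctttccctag
Socs1, ISRE, chr16:10785597-10785626, minus strand: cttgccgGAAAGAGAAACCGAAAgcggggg
Socs3, GAS, chr11:117969502-117969530, minus strand: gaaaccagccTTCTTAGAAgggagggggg
Ifnar2, GAS, chr16:91372559-91372587, plus strand: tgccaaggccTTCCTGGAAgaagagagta

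In Socs1 the capitals hold 2 ISRE matches that share letters, and these begin 83 and 77 bases upstream of the transcript start. The Stat2 match begins 222 bases upstream, the Socs3 match 154 and the Ifnar2 match 214, each counted from the transcript start of its window. The Socs3 stretch therefore lies within the span of the gene, upstream of a start inside it. The windows of Ifnar1, Ifngr1, Ifngr2, Jak1 and Jak2 held neither set of letters. A match describes the letters in this window, not binding, and these data hold no measurement of binding.

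The total count of a sample was between 29261988 and 37117934, and values are given as CPM, the counts of a gene relative to the library size of its sample as scaled by edgeR's TMM factors. The targeted Gm39822 was counted 2, 1, 4 and 2 times after knockdown (GapmeR samples 1 to 4), against 61 and 56 times in the negative controls. Over all genes tested, the median log2 fold change was 0.03, and scaling by library size alone moved this median by 0.15. The 12 endothelial marker genes summed to between 6782 and 7809 CPM in the GapmeR samples and to 8867 and 9131 CPM in the controls, and 7 of them were called lower and 1 (Erg) higher. The 12 macrophage and leukocyte marker genes summed to 235, 215, 371 and 403 CPM in GapmeR samples 1 to 4 and to 183 and 178 CPM in the controls. Only Fcer1g and Cd68 of these were called (higher), no gene of this list was at 0 in every sample, and the largest contributors were Lyz2 and Cd68. Pericyte and fibroblast markers summed to 78.9 CPM in GapmeR sample 3 and to between 15.9 and 21.3 CPM in the other samples, with 0 of 10 called by edgeR and 1 at an unadjusted p-value under 0.05. Epithelial markers stayed at 1.61 CPM or less in every sample, with Cldn4 and Krt8 called higher. Neither gene reached the 5 counts needed for testing in a control, so both entered the test only through the GapmeR samples. In bulk RNA, fewer cells of a type and less RNA per cell cannot be told apart. The part of these marker levels in the results that follow was not tested, but the changes of the named genes and the counts called in each group of genes were also computed from GapmeR samples 1 and 2 alone, the pair with the lower macrophage marker sums.

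Of the 9 interferon pathway genes, 5 were lower after Gm39822 knockdown at an adjusted p-value under 0.05, 0 were higher and 4 did not pass in edgeR's quasi-likelihood test. DESeq2 and limma-voom also called 0 higher, and 0 were higher at an unadjusted p-value under 0.05. The genes that fell were Socs3, Ifngr2, Jak1, Stat2 and Ifnar2, in order of their change. All 9 log2 fold changes were below 0, with a median of -0.22. Among all genes tested 45.3% were called in either direction, 20.0% lower and 25.4% higher. The groups did not overlap in 6 of the 9 genes, near the 59.2% of all genes tested that had no overlap in either direction. In all 6 the GapmeR samples lay below both controls, as did 27.3% of all genes tested. Scaled by library size alone, Socs3 and Ifngr2 were the 2 genes still called, and the log2 fold changes of Ifngr1 (0.06) and Jak2 (0.10) turned positive. That scaling also moved the split of calls over all genes from 55.9% higher to 74.1% higher. With GapmeR samples 1 and 2 alone, 4 of the 9 were called, namely Socs3, Ifngr2, Jak1 and Socs1.

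**Figure D1:**
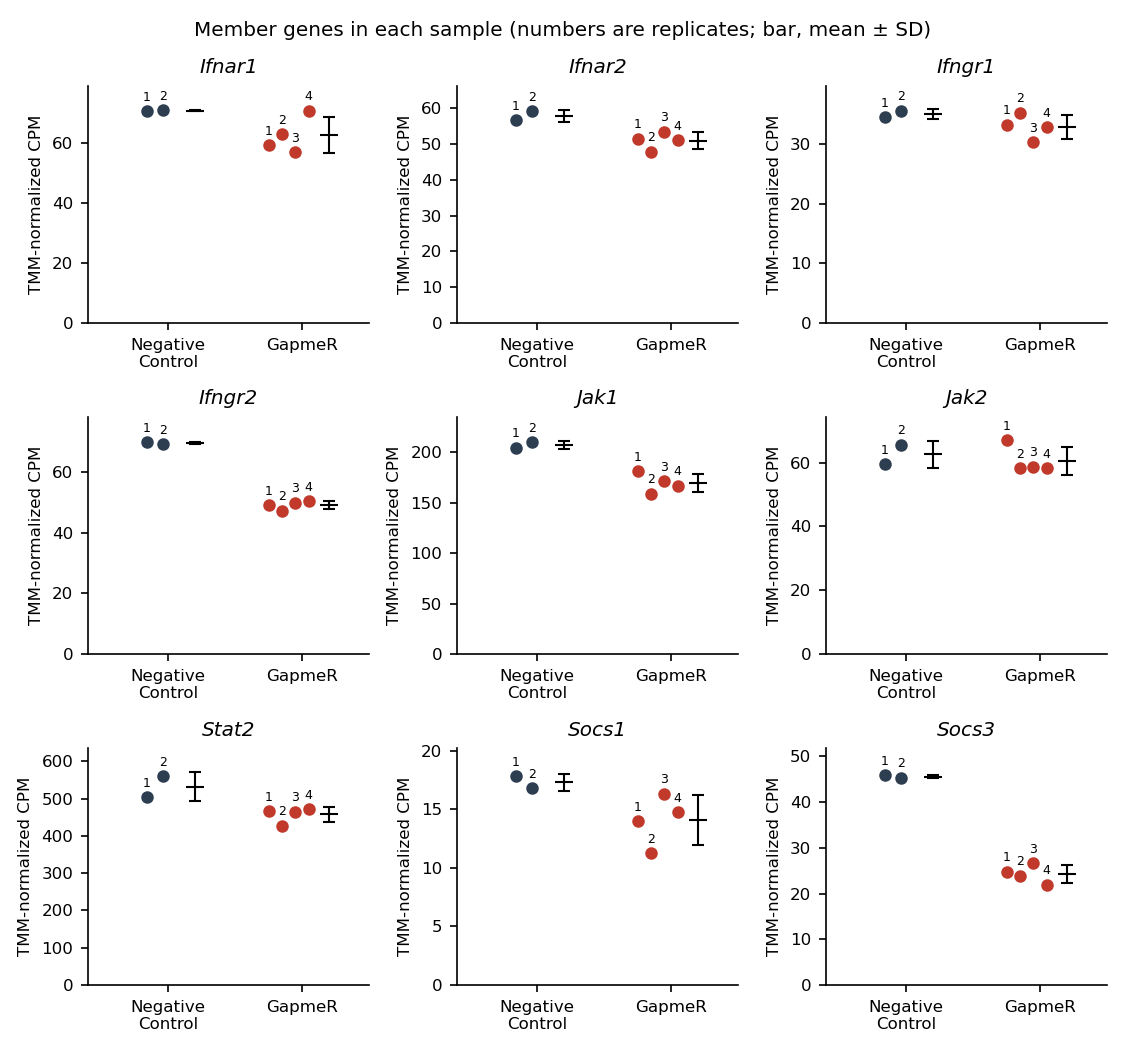
TMM-normalized CPM of the 9 genes (y axis, from 0) in 2 negative control and 4 GapmeR samples; each point is a sample with its replicate number, and the bar is the mean ± SD. GapmeR points lie far below the controls for Socs3 (21.9 to 26.7 against 45.3 and 45.8) and Ifngr2 (47.2 to 50.4 against 69.3 and 69.9), and the groups overlap for Ifnar1, Ifngr1 and Jak2.

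Of the interferon gamma receptor chains, Ifngr2, the signalling chain that brings JAK2 to the receptor, fell, while Ifngr1, the chain that binds the ligand, did not pass the test. Ifngr2 was at 49.2, 47.2, 49.9 and 50.4 CPM in GapmeR samples 1 to 4 and at 69.9 and 69.3 CPM in the controls. Every GapmeR sample lay well below both controls, and the spread within each group was small (49.2 ± 1.39 CPM, SD, n = 4, and 69.6 ± 0.396 CPM, SD, n = 2). Its log2 fold change was -0.50 (standard error 0.07, 95% confidence interval -0.64 to -0.36, adjusted p = 1.73e-05 in edgeR's quasi-likelihood test), or 0.707 of the control level. Ifngr2 passed in all 14 alternative settings, between -0.51 and -0.35. Ifngr1 was at 33.2, 35.2, 30.2 and 32.7 CPM in the GapmeR samples and at 34.4 and 35.6 CPM in the controls. GapmeR sample 2 lay between the controls and the other 3 samples below them, and the log2 fold change was -0.09 with an interval of -0.26 to 0.08 (adjusted p = 0.379, edgeR).

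Of the type I receptor chains, Ifnar2, the chain that binds interferon tightly and anchors STAT2, fell by a small amount, and Ifnar1, the lower-affinity chain that carries TYK2, did not pass. Ifnar2 was at 51.6, 47.8, 53.4 and 51.1 CPM in the GapmeR samples and at 56.8 and 59.1 CPM in the controls. All GapmeR samples were below both controls, and the log2 fold change was -0.19 (standard error 0.07, interval -0.34 to -0.03, adjusted p = 0.0463, edgeR). This call did not pass in any of the 14 alternative settings, where the adjusted p-value was between 0.0509 and 0.693. Leaving out any 1 of the 6 samples ended it, with values between -0.20 and -0.13. Ifnar1 was at 59.3, 62.9, 57.0 and 70.7 CPM in the GapmeR samples and at 70.5 and 71.0 CPM in the controls. GapmeR sample 4 was level with the controls while the other 3 samples were lower, and the log2 fold change was -0.18 (interval -0.36 to -0.00, adjusted p = 0.0916, edgeR). Without GapmeR sample 4 it was -0.24 with an adjusted p-value of 0.0199 (edgeR), the 1 setting of 14 in which Ifnar1 passed. By library size alone its log2 fold change was -0.03 (adjusted p = 0.8, edgeR). The intervals of Ifnar1 and Ifnar2 cover nearly the same values, and the difference between these genes is given as a ratio further on.

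Il10rb, which lies between them on chromosome 16 and is a chain of the interferon lambda and interleukin 10 receptors, changed by -0.14 on the log2 scale (adjusted p = 0.146, edgeR), or 0.01 when scaled by library size alone. Its partner Ifnlr1 had 0 counts in all 6 samples, where 3 counts, the limit that a count of 0 allows, correspond to between 0.0770 and 0.109 CPM. Among Ifnar2, Il10rb, Ifnar1 and Ifngr2, the change was largest in Ifngr2.

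Jak1, the kinase shared by both interferon receptors, fell, while Jak2 did not pass. Jak1 was at 181, 159, 171 and 167 CPM in the GapmeR samples and at 204 and 209.9 CPM in the controls. The groups did not overlap, and GapmeR sample 1 came nearest to the controls. The GapmeR mean was 169.6 ± 9.28 CPM (SD, n = 4) against 207 ± 3.84 CPM (SD, n = 2), and the log2 fold change was -0.29 (standard error 0.07, interval -0.44 to -0.13, adjusted p = 0.00415, edgeR). Without negative control 2 the change was -0.25 and no longer passed (adjusted p = 0.0877), and by library size alone it was -0.14 (adjusted p = 0.107). Jak2, which pairs with JAK1 at the interferon gamma receptor, was at 67.0, 58.3, 58.7 and 58.2 CPM in the GapmeR samples and at 59.5 and 65.7 CPM in the controls. GapmeR sample 1 was the highest of all 6, the other 3 samples were the lowest, and the log2 fold change was -0.05 with an interval of -0.22 to 0.12 (adjusted p = 0.652, edgeR).

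Stat2, the transcription factor of the type I response, had the highest count of the 9 genes and fell slightly. It was at 466, 427, 465 and 471 CPM in the GapmeR samples and at 504 and 559 CPM in the controls. GapmeR sample 2 was lowest, the other 3 samples lay close together, and the controls differed from each other by more than the GapmeR mean did from the lower control. The log2 fold change was -0.22 (standard error 0.08, interval -0.38 to -0.05, adjusted p = 0.0300, edgeR). The call was lost without GapmeR sample 3 (-0.20, adjusted p = 0.0718), without negative control 1 (-0.27, adjusted p = 0.0617), without negative control 2 (-0.12, adjusted p = 0.431), by library size alone (-0.07, adjusted p = 0.463), with a filter of at least 10 counts in every sample (-0.17, adjusted p = 0.0818) and with GapmeR samples 1 and 2 alone (-0.23, adjusted p = 0.0848). Stat2 passed in 7 of the 14 alternative settings. Its window is the one shown above with a single ISRE match.

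Socs3 fell more than any other of the 9 genes, to 0.533 of the control level. It was at 24.8, 23.9, 26.7 and 21.9 CPM in the GapmeR samples and at 45.8 and 45.3 CPM in the controls. No GapmeR sample came near the controls, and the gap between the groups was wider than the range within either. The GapmeR mean was 24.3 ± 1.97 CPM (SD, n = 4) against 45.6 ± 0.335 CPM (SD, n = 2). The log2 fold change was -0.91 (standard error 0.08, interval -1.08 to -0.73, adjusted p = 2.33e-07, edgeR), and it passed in all 14 alternative settings, between -0.93 and -0.76.

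Socs1 moved less, and its test depended on the samples used. It was at 14.0, 11.2, 16.3 and 14.8 CPM in the GapmeR samples and at 17.8 and 16.8 CPM in the controls. All GapmeR samples were below both controls, but GapmeR sample 3 nearly reached negative control 2 and the spread among the GapmeR samples was wide (14.1 ± 2.13 CPM, SD, n = 4). The log2 fold change was -0.30 (standard error 0.12, interval -0.57 to -0.04, adjusted p = 0.0583, edgeR). Without GapmeR sample 3 it was -0.36 and passed (adjusted p = 0.0178), and with GapmeR samples 1 and 2 alone it was -0.44 (adjusted p = 0.00528). Without GapmeR sample 2 the change was -0.20 and did not pass (adjusted p = 0.091, edgeR). By library size alone it was -0.16 (adjusted p = 0.323, edgeR). Socs1 passed in 4 of the 14 alternative settings. Socs1 has the ISRE pair and Socs3 the GAS match among the stretches shown above.

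The count table and the annotation limit how cleanly some of these reads can be assigned, since the strand setting of the counting is not given in the sources used here. Raver2 overlaps Jak1 on the other strand and had a mean of 8.8 counts, against 5891.2 for Jak1. Gm21970 overlaps Ifnar2 on the same strand and had a mean of 0.2 counts. Antisense lncRNA genes that overlap Socs1, Socs3, Ifnar2 and Jak2 in a later annotation have no identifier in the table, so reads from them could not be told apart from these genes if the counting ignored strand.

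Ratios of counts between partner genes within a sample do not depend on the scaling, and 4 were compared with an exact 2-sided permutation test over the 15 arrangements of 6 samples, whose smallest p-value is 0.0667. The ratio of Ifngr1 to Ifngr2, the chains of the interferon gamma receptor, was 0.675, 0.745, 0.606 and 0.649 after knockdown, against 0.493 and 0.513 in the controls. Every GapmeR sample had relatively more Ifngr1 than both controls (log2 difference 0.41, exact p = 0.0667, adjusted over the 4 ratios 0.0889). The ratio of Ifnar1 to Ifnar2 was 1.15, 1.32, 1.07 and 1.38 after knockdown, against 1.24 and 1.20 in the controls, so the controls lay within the GapmeR range (exact p = 1). The ratio of Jak1 to Jak2 was 2.70, 2.73, 2.91 and 2.87 after knockdown, against 3.44 and 3.20 in the controls. All GapmeR samples were below both controls (log2 difference -0.24, exact p = 0.0667, adjusted 0.0889). The ratio of Socs1 to Socs3 was 0.564, 0.471, 0.613 and 0.674 after knockdown, against 0.390 and 0.371 in the controls. All GapmeR samples were above both controls (log2 difference 0.60, exact p = 0.0667, adjusted 0.0889). The 3 ratios without overlap had the smallest p-value this design allows, and none passed 0.05.

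**Figure D2:**
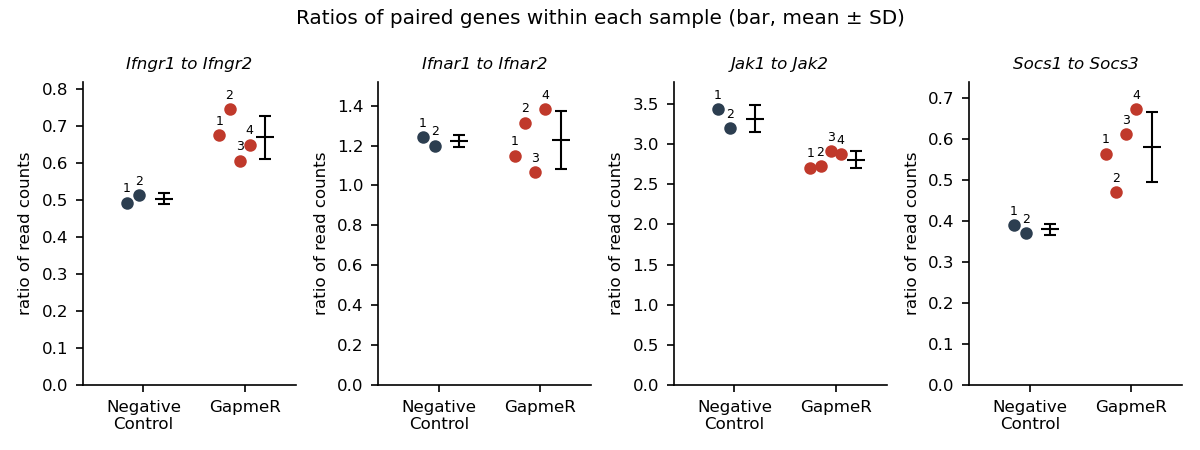
Ratio of read counts between partner genes (y axis, from 0) in each sample; points are samples with their replicate numbers, and bars are mean ± SD of 2 negative control and 4 GapmeR samples. Ifngr1 to Ifngr2 (0.606 to 0.745 against 0.493 and 0.513) and Socs1 to Socs3 (0.471 to 0.674 against 0.371 and 0.390) lie above the controls, Jak1 to Jak2 (2.70 to 2.91 against 3.20 and 3.44) lies below, and Ifnar1 to Ifnar2 overlaps.

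Levels can be compared between genes only per length, here as CPM per kb of the exons of a gene in the GENCODE annotation of GRCm39. In the controls the level of Stat2 was 84.3 CPM per kb, far above the rest. Jak1 followed at 19.1, then Ifnar2 at 15.5 and Ifngr2 at 15.4, Socs3 at 12.8, Ifngr1 at 12.3, Jak2 at 9.88, Ifnar1 at 8.71 and Socs1 at 5.12 CPM per kb. Ifnar2 and Ifngr2 were the one pair of neighbours in this order whose control values overlapped. In the GapmeR samples the mean levels were 72.5 for Stat2, 15.7 for Jak1, 13.6 for Ifnar2, 11.5 for Ifngr1, 10.9 for Ifngr2, 9.56 for Jak2, 7.70 for Ifnar1, 6.83 for Socs3 and 4.16 CPM per kb for Socs1. Ifngr2 thus moved from above to below Ifngr1, although their GapmeR values overlapped, and Socs3 moved from the fifth place to the eighth, overlapping Ifnar1. A union of exons counts exons that these cells may not use, so small gaps between genes on this scale carry that uncertainty.

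**Figure D3:**
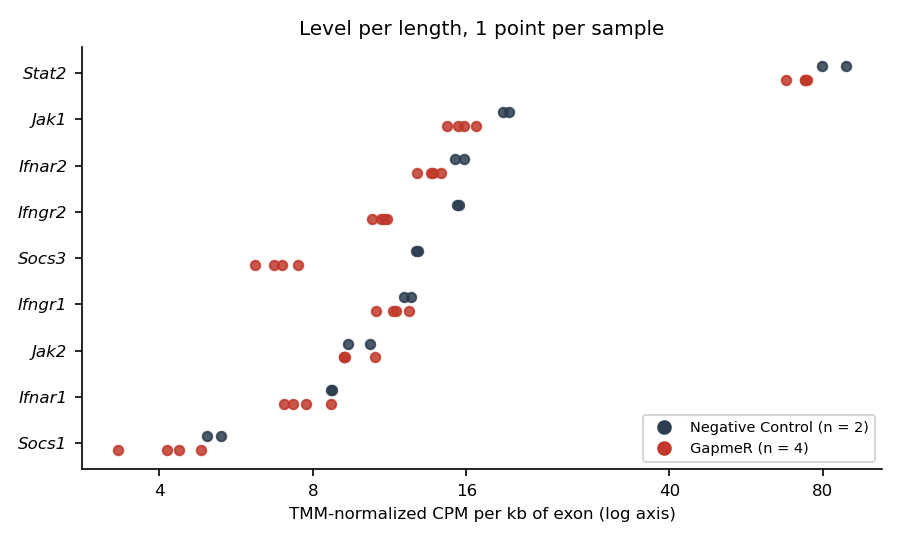
Level of each gene as TMM-normalized CPM per kb of exon (log axis), 1 point per sample, for 2 negative control and 4 GapmeR samples, ordered by the control mean. Stat2 (84.3 in the controls) stands above the other genes, and Socs3 (12.8 against 6.83) and Ifngr2 (15.4 against 10.9) show the widest separation between the groups.

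For the 3 called genes with the largest change, the genes of most similar pattern were those with the smallest Euclidean distance in centred log2 CPM over the 6 samples, among 8870 genes with a mean of at least 10 CPM. For Socs3 these were Scnm1 (distance 0.105), Gap43 (0.124) and Laptm4b (0.136). For Ifngr2 they were Cyp4f16 (0.0548), Fbxo7 (0.0592) and Ergic3 (0.0611). For Jak1 they were Jcad (0.0356), Eri1 (0.0368) and Tnfaip1 (0.0444). With 6 samples in 2 groups, such likeness mostly describes an equal difference between the groups.

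The other genes of the same families were read from the same fit. Of 13 further JAK, STAT and SOCS genes, 6 were lower, 3 higher and 4 did not pass, with a median log2 fold change of -0.17. As shares, 46.2% were lower and 23.1% higher, against 20.0% and 25.4% of all genes tested, whose median was 0.03. Among the STAT genes Stat3, which answers to interleukin 6 and related cytokines, fell to 105.9 ± 4.93 CPM (SD, n = 4) from a control level of 145.9 ± 4.40 CPM (SD, n = 2), or by -0.46 on the log2 scale (adjusted p = 5.91e-05, edgeR). Stat6, the factor of interleukin 4 and 13, fell by 0.24 on the log2 scale (adjusted p = 0.0158, edgeR). Stat5b, a factor of growth hormone and other cytokines, rose to 51.9 ± 0.786 CPM (SD, n = 4) from a control level of 32.0 ± 1.71 CPM (SD, n = 2), or by 0.70 on the log2 scale (adjusted p = 1.39e-06, edgeR). Stat5a, its close relative, was at 0.01 (adjusted p = 0.94, edgeR), and Stat4 had between 6 and 18 counts in a sample and did not pass.

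Among the other kinases Tyk2, the partner of JAK1 at the type I receptor, was higher, with 39.6, 37.8, 38.5 and 39.9 CPM in the GapmeR samples and 32.2 and 33.5 CPM in the controls. Its log2 fold change was 0.25 (adjusted p = 0.0128, edgeR), opposite in sign to that of Jak1. Jak3, which works with the common gamma chain of interleukin receptors, rose by 0.35 (adjusted p = 0.0109, edgeR). Without negative control 1 neither kinase passed (adjusted p = 0.0953 for Tyk2 and 0.0846 for Jak3), and Jak3 also did not pass with GapmeR samples 1 and 2 alone (0.0515).

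Of the further SOCS genes, 4 were called lower, and their log2 fold changes were -0.53 for Socs7, -0.41 for Socs2, -0.27 for Socs6 and -0.27 for Socs5. Socs4 was at -0.17 (adjusted p = 0.116, edgeR) and Cish, at about 1 CPM, at 0.04 (adjusted p = 0.921, edgeR). Scaled by library size alone, Stat6, Socs5 and Socs6 were no longer called, which left Stat3, Socs2 and Socs7 as the 3 relatives called lower. Without negative control 1 the calls of Stat6, Socs5 and Socs6 were lost, without negative control 2 those of Stat6, Socs2, Socs5 and Socs6, and without GapmeR sample 3 or with GapmeR samples 1 and 2 alone that of Socs6, while Socs4 passed without GapmeR sample 2 (-0.23, adjusted p = 0.0175). The 4 proteins that the SOCS box recruits to tag its targets with ubiquitin are encoded by Elob, Eloc, Cul5 and Rnf7, and 0 of the 4 were called by edgeR or by DESeq2, or at an unadjusted p-value under 0.05. Their log2 fold changes were -0.15, -0.02, -0.04 and 0.08, and by library size alone Rnf7 was called higher (0.23).

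**Figure D4:**
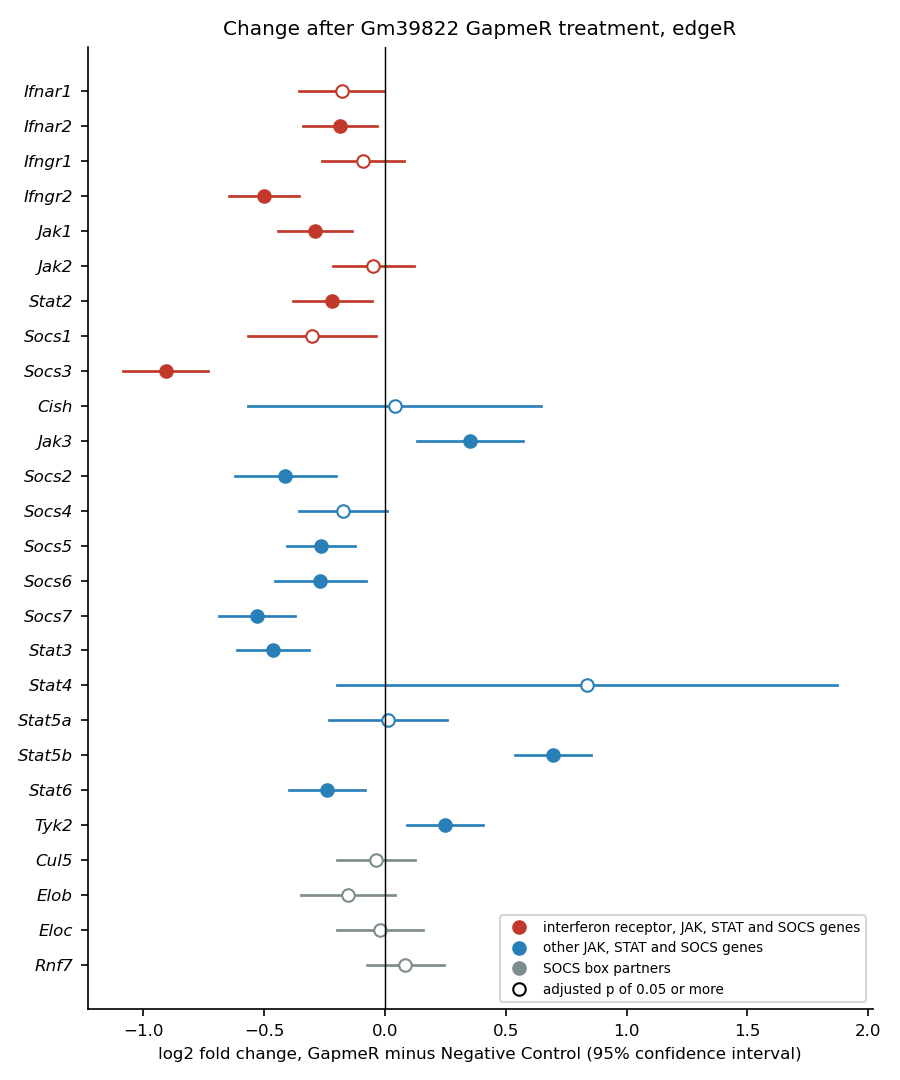
Log2 fold change, GapmeR minus negative control (x axis), with its 95% confidence interval from edgeR, for the 9 genes (red), the 13 further JAK, STAT and SOCS genes (blue) and the 4 SOCS box partners (grey); filled points had an adjusted p-value under 0.05. Socs3 (-0.91) lies farthest to the left of the called genes, and Stat5b (0.70) farthest to the right.

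Upstream of the receptors, 6 of the 20 interferon genes listed had enough counts to be tested, and each of the others, Ifng among them, had at most 5 counts in a sample. Ifnb1, the interferon beta gene, rose. Its counts were 259, 360, 200 and 264 after knockdown, against 74 and 114 in the controls. All GapmeR samples were above both controls, at a mean of 7.88 ± 1.16 CPM (SD, n = 4) against 3.14 ± 0.616 CPM (SD, n = 2), and the log2 fold change was 1.32 (standard error 0.17, interval 0.95 to 1.69, adjusted p = 1.41e-05, edgeR). Ifne, interferon epsilon, fell from 6.28 to 4.63 CPM, a log2 fold change of -0.44 (adjusted p = 0.0170, edgeR), and it did not pass without negative control 1 (adjusted p = 0.0825) or 2 (adjusted p = 0.141), or with GapmeR samples 1 and 2 alone (-0.33, adjusted p = 0.0907). Ifna13, named after its values were seen, was also called higher, on 1, 5, 5 and 3 counts against 0 and 0. It reached 5 counts, the level needed for testing, only in GapmeR samples 2 and 3. Because it entered the test through the group where it was high, its call is not evidence of a rise. DESeq2 called 1 interferon gene higher in place of 2, as did the fit with GapmeR samples 1 and 2 alone, which called 0 lower.

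Among 10 genes that regulate the pathway after the receptor, 1 was higher, 2 were lower and 7 did not pass. These shares, 20% lower and 10% higher, are no more than the 20.0% and 25.4% of all genes tested. Irf9, the DNA-binding partner of STAT2, was at 175.6, 163, 173 and 173 CPM in the GapmeR samples and at 207 and 216 CPM in the controls. The groups did not overlap, and the log2 fold change was -0.30 (adjusted p = 0.00202, edgeR). Usp18, which binds IFNAR2 and damps type I signalling, fell by 0.34 on the log2 scale (adjusted p = 0.00326, edgeR). Ptpn6, the phosphatase SHP-1, was at 2.18, 2.26, 3.74 and 4.55 CPM in the GapmeR samples and at 0.876 and 0.908 CPM in the controls, a log2 fold change of 1.82 (adjusted p = 0.000642, edgeR). Ptpn6 is also expressed strongly in leukocytes, and its higher values are in the same GapmeR samples, 3 and 4, as the higher macrophage marker sums. With GapmeR samples 1 and 2 alone its log2 fold change was 1.33 (adjusted p = 0.000145, edgeR). The macrophage marker sums of these samples, 235 and 215 CPM, were also above those of the controls, 183 and 178 CPM. The part of these marker levels in the change of Ptpn6 was not tested. By library size alone neither Irf9 nor Usp18 passed, and without negative control 2 both calls were lost (adjusted p = 0.0716 and 0.125). Usp18 also did not pass with GapmeR samples 1 and 2 alone (-0.26).

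Of 27 other receptor genes that signal through JAK kinases, 21 were tested, and 7 were lower, 3 higher and 11 did not pass. Over all genes tested 45.3% were called, 20.0% lower and 25.4% higher. The share called was about the same in this group, at 33.3% lower and 14.3% higher. The largest falls were in Ghr, the growth hormone receptor (from 59.6 to 24.1 CPM, log2 fold change -1.30), Lifr, the leukaemia inhibitory factor receptor (from 4.05 to 1.66 CPM, -1.29), and Il13ra1, a chain of the interleukin 13 receptor (from 34.1 to 14.6 CPM, -1.23). The 3 that rose, named after their values were seen, were Il12rb2, Il21r and Epor, all with group means under 1 CPM. Il12rb2 reached the 5 counts needed for testing in no control (2 and 1 counts). It therefore entered the test only through the GapmeR samples, and its call is not evidence of a rise. By library size alone 5 of this group were lower and 7 higher, and DESeq2 called 6 lower and 5 higher, so the balance of directions in this group depended on the setting.

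Downstream, the genes that interferon is known to induce were mostly lower. Of 28 interferon-stimulated genes of the antiviral kind, 20 were lower, 1 was higher and 7 did not pass, with a median log2 fold change of -0.42. That is 71.4% lower and 3.57% higher, against 20.0% and 25.4% of all genes tested. Zbp1, a sensor of Z-form nucleic acid, fell from 262 to 84.8 CPM, Mx1, an antiviral GTPase, from 232 to 110.4 CPM, and Rsad2, which encodes viperin, from 2442 to 1248 CPM. Their log2 fold changes were -1.63, -1.07 and -0.97. Mx2, a relative of Mx1, was the exception that rose, to 650.1 ± 24.7 CPM (SD, n = 4) against 273 ± 27.8 CPM (SD, n = 2) in the controls, with a log2 fold change of 1.25 (adjusted p = 6.34e-09, edgeR). By library size alone 17 of the 28 were lower and 4 higher.

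Of 24 genes known to answer to interferon gamma, 22 were tested, and 19 were lower, 0 higher and 3 did not pass, with a median log2 fold change of -0.64. Against 20.0% lower and 25.4% higher among all genes tested, 86.4% of this group were lower. DESeq2 also called 0 of this group higher, 0 were higher at an unadjusted p-value under 0.05, and Icam1 (0.54, adjusted p = 0.155, edgeR) was the one gene with a positive value. Cd274, which encodes PD-L1, was at 48.4, 42.0, 48.0 and 44.0 CPM in the GapmeR samples and at 142 and 174 CPM in the controls. The groups were far apart, with a log2 fold change of -1.80 (adjusted p = 1.08e-10, edgeR). Cxcl10, a chemokine for T cells, fell from 212 to 86.5 CPM and Gbp2, a guanylate-binding protein, from 473 to 233 CPM, with log2 fold changes of -1.29 and -1.02. The endothelial marker sum given above moved in the same direction as these groups, and its part in them was not tested. The members of the lists were chosen with earlier results of these data known, so their directions are a description of these samples.

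**Figure D5:**
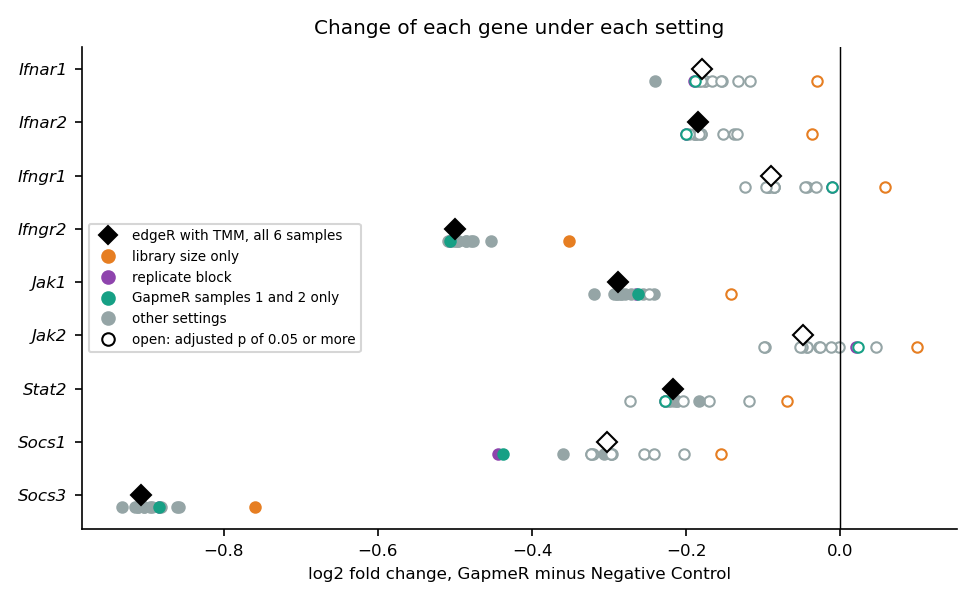
Log2 fold change of each of the 9 genes, GapmeR minus negative control (x axis), in the analysis reported (black diamonds) and in 14 alternative settings (circles); open symbols had an adjusted p-value of 0.05 or more. Socs3 (-0.93 to -0.76) and Ifngr2 (-0.51 to -0.35) stay filled and left of 0 in all settings, whereas Ifnar2 is filled only as reported and Jak2 and Ifngr1 cross 0.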

How the data were processed

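Ribosome-depleted RNA of bEND.3 cells was sequenced as paired reads by the authors, aligned to mm10 and deposited as whole-number read counts per Ensembl gene, neither normalized nor filtered. The submitters' processing notes name Trimmomatic 0.36, STAR 2.5.2b and Subread 1.5.2. The strand setting is not given in the sources used here. Samples were grouped by title into 4 GapmeR and 2 negative control samples, and 1 further column of per-sample counts, named in the manner of the negative controls but matching no labelled sample, was not used. The methods of the study give 4 samples in each group, so the controls analysed here are fewer. No pair of samples of a group was the same within sampling noise (chi-square per degree of freedom 5.41 to 25.2). The pairs that include GapmeR sample 2 gave 18.5 to 25.2, and all other pairs gave at most 10.7. GapmeR sample 2 is also part of the fit with GapmeR samples 1 and 2 alone. Total counts were 29261988 to 37117934. Limits for a count of 0 cover counting error only, whereas intervals of fold changes come from the edgeR fit and include the spread between samples.

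Genes that reached 5 counts in 2 or more samples were tested with edgeR 4.0.16 in R 4.3.3 (TMM, robust quasi-likelihood test, no covariate), with Benjamini-Hochberg adjustment over all 18234 genes and a threshold of 0.05. The standard error is the log2 fold change divided by the square root of F. The genes and lists were chosen with earlier results of these data known. Named in the text were the 9 genes, the JAK, STAT and SOCS relatives (less 1 that is not reported here) and SOCS box partners, up to 3 rising and 3 falling genes of each other list at a mean of at least 1 CPM, 3 genes of like pattern for each of 3 called genes, and Gm39822. Alternatives were DESeq2 1.42.0 size factors, library size alone, the DESeq2 Wald test (the test of the study), limma-voom 3.58.1, 2 other filters, a 1.5-fold threshold, the replicate block and each sample left out. The fit with GapmeR samples 1 and 2 alone was added after marker sums were seen, and its counts by list later still. Deviations of same-numbered samples from their group means had correlations of -0.113 and 0.176 over 8870 genes. The 2 controls deviate from their mean by equal and opposite amounts, so these values are not independent and cannot exclude pairing. Replicate numbers were not taken as pairs, because the labels do not say that they mark pairs.

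The test was tried on simulated counts of 18234 genes, with changes placed in genes of at least 300 mean counts after a first trial with a lower limit had missed its target. It recovered 50 of 50 genes changed 0.5-fold, 49 of 50 changed 1.5-fold and 15 of 50 changed 1.25-fold, and 9 of 173 calls were false. Only the 50 genes at each fold were changed, far fewer than were called in the data. The simulated spread followed the trend over all genes, not the spread of each gene. The shares recovered and false therefore describe that setting and need not hold for these data. Promoter windows and gene positions came from RefSeq tables of GRCm38.p6, and figures were drawn with matplotlib 3.10.9.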

Additional observations from a re-analysis of the deposited data

Results flagged for a closer look

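Among 26 genes and 4 ratios between genes, checked in the 4 GapmeR samples for 1 sample far from the rest by Dixon's ratio, 3 values stood out, and chance marks about 1 group in 20 by this rule. Stat2 was lowest in GapmeR sample 2, at 427 CPM. Stat6 was lowest in the same sample, at 187 CPM. Jak2 was highest in GapmeR sample 1, at 67.0 CPM.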

How the results depend on the processing

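Socs3 and Ifngr2 kept direction and call in all 14 settings, and the log2 fold change of Gm39822 stayed between -5.44 and -4.52 where it was tested. The values that moved are as follows, with causes not tested. By library size alone the log2 fold changes were -0.14 for Jak1, -0.069 for Stat2, -0.038 for Ifnar2, 0.058 for Ifngr1, 0.10 for Jak2, 0.010 for Il10rb, 0.13 for Eloc and 0.11 for Cul5; 2135 genes were called lower, of them 2 of the 9. Calls by list were then 3 relatives, 0 interferons and 0 regulators lower, and 3 regulators, 1 SOCS box partner, 7 other receptors and 4 antiviral genes higher. DESeq2 gave -0.18 for Ifnar2, with 1 interferon, 2 regulators and 5 other receptors higher. Its size factors in edgeR gave -0.18 for Ifnar2 and voom -0.19. With no filter Ifnar2 was at -0.19 and Socs1 at -0.31 (called), and with at least 10 counts in every sample Ifnar2 was at -0.14, Stat2 -0.17, Eloc 0.027 and Cul5 0.0089, with 3 of the 9 called, all lower. At 1.5-fold, 4628 genes were called, 1390 of them lower. With the replicate block, on 4 samples, Ifnar2 was at -0.20 and Stat2 -0.23 (neither called), Socs1 -0.44 (called), Jak2 0.021 and Eloc 0.072, and 7813 genes were called; Ifne and Socs6 were not. GapmeR samples 1 and 2 alone gave -0.20 for Ifnar2 and -0.23 for Stat2 (neither called), -0.44 for Socs1 (called), 0.023 for Jak2 and 0.076 for Eloc, with 1 interferon higher and 0 lower (1 called in all) and 1 regulator lower. Leaving out 1 sample at a time gave ranges of -0.32 to -0.25 for Jak1, -0.27 to -0.12 for Stat2, -0.36 to -0.20 for Socs1, -0.24 to -0.12 for Ifnar1, -0.20 to -0.13 for Ifnar2, -0.10 to 0.046 for Jak2, -0.12 to 0.25 for Cish, -0.085 to 0.039 for Eloc, -0.086 to 0.049 for Cul5, -0.027 to 0.059 for Stat5a and -0.059 to 0.066 for the Ifnar1 to Ifnar2 log2 ratio difference. Between 5232 and 8720 genes were then called, 1930 to 3948 of them lower, and 2 to 5 of the 9, all lower, with the fewest without negative control 2. That fit and the one without negative control 1 leave a lone control, assumed to vary like the GapmeR samples. In simulated counts 15 of 50 genes changed 1.25-fold were recovered. That setting had far fewer changed genes than these data, so how often changes as small as those of Stat2 and Ifnar2 are missed here was not tested.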
